A study of Mus musculus with 4 samples.

Results

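The HOX genes were taken as the protein-coding genes of the GENCODE M21 mouse annotation whose symbol is Hoxa, Hoxb, Hoxc or Hoxd followed by a number. This rule uses the name alone and found 39 genes among the 43432 genes of the deposited count table, with every one of the 39 present. They lie in 4 clusters on GRCm38: 11 Hoxa genes in chr6:52155590-52260880, 10 Hoxb genes in chr11:96194316-96368256, 9 Hoxc genes in chr15:102921103-103036852 and 9 Hoxd genes in chr2:74668310-74765142. The clusters span 105291, 173941, 115750 and 96833 bases in that order.

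HOX genes encode homeodomain transcription factors that give cells of the embryo their position along the head-to-tail axis. The clusters arose by duplication of an ancestral cluster, so a gene has paralogues of the same number at the matching place in other clusters, and low numbers are used towards the head and high numbers towards the tail and the ends of the limbs. HOX proteins bind DNA together with PBX and MEIS cofactors, and trithorax and Polycomb complexes keep the genes on or off in the descendants of those cells. Adult cells, among them sympathetic neurons and the fibroblasts of the skin, keep a combination of active HOX genes that reflects where in the body they came from.

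Messenger RNA came from 4 subcutaneous tumours of female C57BL/6 mice, grown from 9464D-GD2 cells. These cells derive from 9464D, a neuroblastoma line of a MYCN-transgenic mouse, and carry the ganglioside GD2 on their surface. Both groups received 25 µg dinutuximab, an antibody against GD2, on 2 days a week for 5 treatments, and the second group also received 20 µg of small extracellular vesicles (sEVs). The series design describes the tumours of a group as biological replicates, no group without the antibody was analysed here, and the labels give no age. All 4 tumours come from 1 line, so the groups compare treatments within that line. The tumours carry the numbers 3 and 4 in each group and are called dinutuximab tumour 3, dinutuximab tumour 4, sEV tumour 3 and sEV tumour 4.

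The libraries held between 24452699 and 28187573 counts, with 18818 to 19164 genes detected. The sEV tumour 3 stood apart on the first principal component of all tested genes, at 35.2 against -16.3 to -5.96 in the other 3 tumours, on a component that held 42.4% of the variance. The lineage label was checked against 12 sympathetic neuroblast markers: Hand2 and Mycn were abundant and 5 of the 12 passed the low-count filter, whereas Dbh was at 0 and Phox2a, Th and Chgb had at most 3 counts in any tumour. In bulk tumour RNA, fewer cells of a type and less RNA per cell cannot be told apart.

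The HOX genes were used sparsely. Of the 39, 12 had 0 counts in all 4 tumours, 7 had between 1 and 3 counts in their highest tumour, 15 rose above 3 counts in a tumour but stayed under the low-count filter, and 5 passed that filter. The filter (filterByExpr of edgeR) keeps a gene that reaches about 10 counts in at least 2 libraries. The 5 that passed were Hoxd8, Hoxc4, Hoxc6, Hoxb4 and Hoxa7. They make up 12.8% of the HOX genes, against 57.3% of the 21474 protein-coding genes of the table that passed, while the share at 0 in every tumour was 30.8% of the HOX genes and 26.8% of all protein-coding genes. A count of 0 allows up to 3 counts, which is 0.104 to 0.123 CPM in these libraries (CPM is the count scaled to the library size), so a gene at 0 may still be transcribed below that level.

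The genes that passed the filter shared a position within their clusters. All 5 genes that passed the filter belong to paralogue groups 4 to 8, the central groups, which hold 15 of the 39 genes and have 1 member at 0, Hoxa6. None of the 8 anterior genes (groups 1 to 3) passed, and 3 of them, Hoxb1, Hoxd1 and Hoxd3, were at 0. None of the 16 posterior genes (groups 9 to 13) passed, and 8 were at 0: Hoxa11, Hoxa13, Hoxc11, Hoxc12, Hoxd10, Hoxd11, Hoxd12 and Hoxd13. Paralogue groups 11 and 12, with 3 and 2 genes, had no count in any tumour. Between 20 and 23 HOX genes had at least 1 count in a given tumour.

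**Figure D1:**
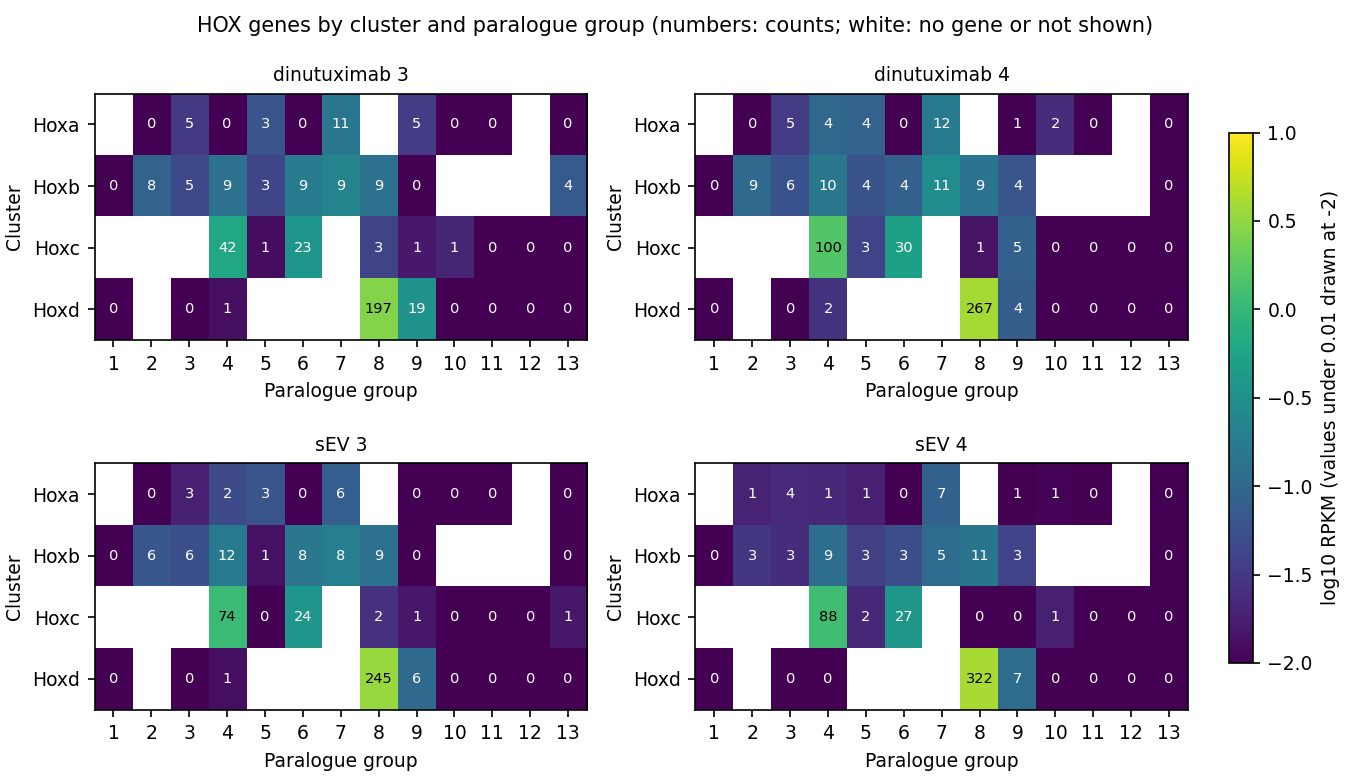
HOX genes of each tumour by cluster (rows) and paralogue group (columns, 1 to 13), with 1 panel per tumour. Colour is the log10 of the RPKM, the CPM divided by the exon length in kilobases, the number in a cell is the count, and white cells have no gene or are not shown. Hoxd8 is the strongest cell in all 4 panels, and the columns 11 and 12 hold no count.

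The unequal use within the Hoxd cluster is the clearest case of neighbouring HOX genes at different levels. Hoxd8, with 197 to 322 counts per tumour, is separated by Hoxd9 alone from Hoxd10, which had 0. The 250 bases before the start of both genes, and of Hoxd12, also at 0, are shown because they are the promoters of the strongest and of silent genes of the same cluster, with every CG dinucleotide in capitals. They are RefSeq sequences of GRCm38.p6, written 5′ to 3′ on the plus strand, which is the strand of the genes, and lie at chr2:74704365-74704614 for Hoxd8, chr2:74691641-74691890 for Hoxd10 and chr2:74674763-74675012 for Hoxd12.
Hoxd8: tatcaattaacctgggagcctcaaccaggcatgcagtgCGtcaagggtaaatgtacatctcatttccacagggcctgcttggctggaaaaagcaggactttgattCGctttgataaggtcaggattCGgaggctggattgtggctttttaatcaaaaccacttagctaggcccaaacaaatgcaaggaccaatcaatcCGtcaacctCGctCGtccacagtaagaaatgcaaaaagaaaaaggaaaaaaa
Hoxd10: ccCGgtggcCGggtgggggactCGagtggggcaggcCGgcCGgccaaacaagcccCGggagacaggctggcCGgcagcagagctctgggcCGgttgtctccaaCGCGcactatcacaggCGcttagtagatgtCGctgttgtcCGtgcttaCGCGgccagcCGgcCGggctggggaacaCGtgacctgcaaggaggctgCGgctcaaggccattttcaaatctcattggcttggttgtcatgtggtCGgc
Hoxd12: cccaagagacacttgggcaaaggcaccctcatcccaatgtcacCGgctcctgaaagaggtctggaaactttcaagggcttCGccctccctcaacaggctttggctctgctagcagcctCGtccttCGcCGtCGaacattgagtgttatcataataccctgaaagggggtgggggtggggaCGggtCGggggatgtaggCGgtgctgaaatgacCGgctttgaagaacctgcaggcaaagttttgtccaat
The Hoxd8 window held 6 CG dinucleotides and 44.4% G and C. The Hoxd10 window held 20 and 65.6%, and the Hoxd12 window 10 and 55.6%. Promoters of 22 HOX genes matched by symbol, with 24 start sites, and 17 genes had no entry. The 11 start sites of HOX genes at 0 had a median of 20 CG dinucleotides (range 2 to 35), the 4 of genes that passed the filter a median of 7.5 (range 6 to 14), and all 32851 promoters of the table a median of 6. Windows rich in CG were not limited to HOX genes without a count: those of Hoxa5 and Hoxa3 held 28 and 18. These genes had at most 4 and 5 counts in a tumour, and the Hoxa3 window lies wholly in an annotated exon (250 bases). Some windows of genes at 0 also reach into exons, such as those of Hoxd1 (118 bases) and Hoxa11 (98 bases). Of the 4 windows of genes that passed, that of Hoxc4 lies wholly in an annotated exon (250 bases) and that of Hoxa7 in part (78 bases). The 4 motifs searched, on both strands, were the E-box CACGTG, the TATA box TATAAA, the PBX and HOX motif TGATNNAT and the direct repeat of retinoic acid receptors AGGTCANNNNNAGGTCA. CACGTG was in 4 of the 24 HOX windows (Hoxd1, Hoxd10, Hoxd13 and a second site of Hoxd11), against 6.02% of all promoters. TATAAA and TGATNNAT were in 4 windows each, against 12.4% and 7.68% of all promoters, and the direct repeat was in 0, against 0.00913%. None of the 4 motifs was in the Hoxd8 window shown.

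Levels of different genes were compared per length, as RPKM. Hoxd8 had the highest mean level, at 3.56 ± 0.588 RPKM (SD over the 4 tumours), followed by Hoxc4 at 1.13 ± 0.392 RPKM and Hoxc6 at 0.413 ± 0.0651 RPKM. These 3 genes ranked 1, 2 and 3 in each tumour. Below them, Hoxb7 (0.207 RPKM), Hoxd9 (0.161), Hoxb4 (0.149), Hoxb8 (0.137), Hoxa7 (0.121) and Hoxb6 (0.118) changed places between tumours. Hoxd9, for example, ranked 4 in dinutuximab tumour 3 and 13 in dinutuximab tumour 4, so their order does not stand above the spread.

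The median over the 13754 tested genes with an annotated length was 5.35 RPKM, and even Hoxd8 lay below it, with 40.7% of tested genes at a lower mean RPKM. For Hoxc4 that share was 21.5%, for Hoxc6 10.6%, for Hoxb4 3.51% and for Hoxa7 2.49%. Transcripts of these 5 HOX genes were scarce next to those of most tested genes.

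Expressed as a share of the summed HOX RPKM, the Hoxd cluster held 57.9% ± 4.59 (SD, n = 4 tumours), Hoxc 24.7% ± 3.71, Hoxb 12.7% ± 3.32 and Hoxa 4.69% ± 1.71. Nearly all of the Hoxd share was Hoxd8, which alone held 50.6% and 51.4% in the dinutuximab tumours and 56.0% and 62.1% in the sEV tumours. By position, central genes held 92.8% ± 4.06, posterior genes 4.33% ± 3.04 and anterior genes 2.83% ± 1.16. Paralogue group 8 led with 57.5% ± 5.14 and group 4 followed with 20.2% ± 4.31. The posterior share was 8.84% in dinutuximab tumour 3 and between 2.27% and 3.31% in the other 3 tumours.

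The comparison of the groups asks how HOX expression stood in tumours given sEVs with the antibody against the antibody alone. Of the 5 HOX genes that could be tested, 0 had an adjusted p under 0.05 in the quasi-likelihood test of edgeR, where 0.0% of all 13823 tested genes were called. At an unadjusted p under 0.05 the HOX count was again 0 of 5, against 5.57% of all tested genes (2.47% higher and 3.1% lower with sEVs). Their median log2 fold change, sEV over dinutuximab, was 0.01, with 3 positive and 2 negative values, and the median over all tested genes was 0.00. DESeq2 called 0.369% of the 12191 genes to which it gave an adjusted p, and no HOX gene. It gave no adjusted p to Hoxc6, Hoxa7 and Hoxb4. Without sEV tumour 3, the library that stood apart, the log2 fold changes were 0.26 for Hoxd8, 0.09 for Hoxc4, -0.19 for Hoxc6, -0.29 for Hoxb4 and -0.92 for Hoxa7, and again none was called.

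Hoxd8, a central HOX factor of trunk tissues, reached 7.67 CPM in dinutuximab tumour 3, 10.9 in dinutuximab tumour 4, 9.35 in sEV tumour 3 and 11.2 in sEV tumour 4. The lowest and the second highest tumour belonged to the same group, so the groups overlapped. Group means were 9.30 ± 2.30 CPM with dinutuximab and 10.3 ± 1.27 CPM with sEVs (SD, n = 2), with a log2 fold change of 0.14 (SE 0.24, edgeR adjusted p = 0.961). The difference between the dinutuximab tumours exceeded counting error, since the exact Poisson 95% interval of tumour 3, 6.64 to 8.82 CPM, ended below that of tumour 4, 9.65 to 12.3 CPM. Such intervals cover counting error only.

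Hoxc4, which marks neck and upper trunk positions in the embryo, had 42 and 100 counts in the dinutuximab tumours and 74 and 88 in the sEV tumours. On the library scale these were 1.64, 4.09, 2.82 and 3.05 CPM, so that the highest and the lowest tumour were both in the dinutuximab group. Dinutuximab tumour 4 exceeded dinutuximab tumour 3 2.50-fold, and the interval of tumour 3 (1.18 to 2.21 CPM) overlapped that of none of the other 3 tumours. The group means of 2.86 ± 1.74 and 2.94 ± 0.158 CPM gave a log2 fold change of 0.04 (SE 0.42, edgeR adjusted p = 0.995).

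Hoxc6, a factor of the upper thoracic region, varied little: 0.896 and 1.23 CPM with dinutuximab and 0.916 and 0.935 CPM with sEVs, from 23 to 30 counts per tumour. Both sEV tumours lay between the dinutuximab tumours. The log2 fold change was -0.19 (SE 0.40, edgeR adjusted p = 0.962). Hoxb4, known for its role in blood stem cells besides axial patterning, had 9 and 10 counts with dinutuximab and 12 and 9 with sEVs. At 0.351, 0.409, 0.458 and 0.312 CPM the groups overlapped, with a log2 fold change of 0.01 (SE 0.53, edgeR adjusted p = 0.999).

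Hoxa7 was the 1 tested HOX gene whose groups did not overlap. It had 11 and 12 counts in the dinutuximab tumours and 6 and 7 in the sEV tumours, or 0.428 and 0.491 CPM against 0.229 and 0.242 CPM. Of all tested genes, 16.5% were likewise lower in both sEV tumours than in both dinutuximab tumours. Its log2 fold change of -0.95 (SE 0.54) had an edgeR unadjusted p of 0.115 and an adjusted p of 0.901. Hoxa7 passed the filter only through the dinutuximab group, where it was high, while Hoxb8, with 9, 9, 9 and 11 counts, fell just outside.

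**Figure D2:**
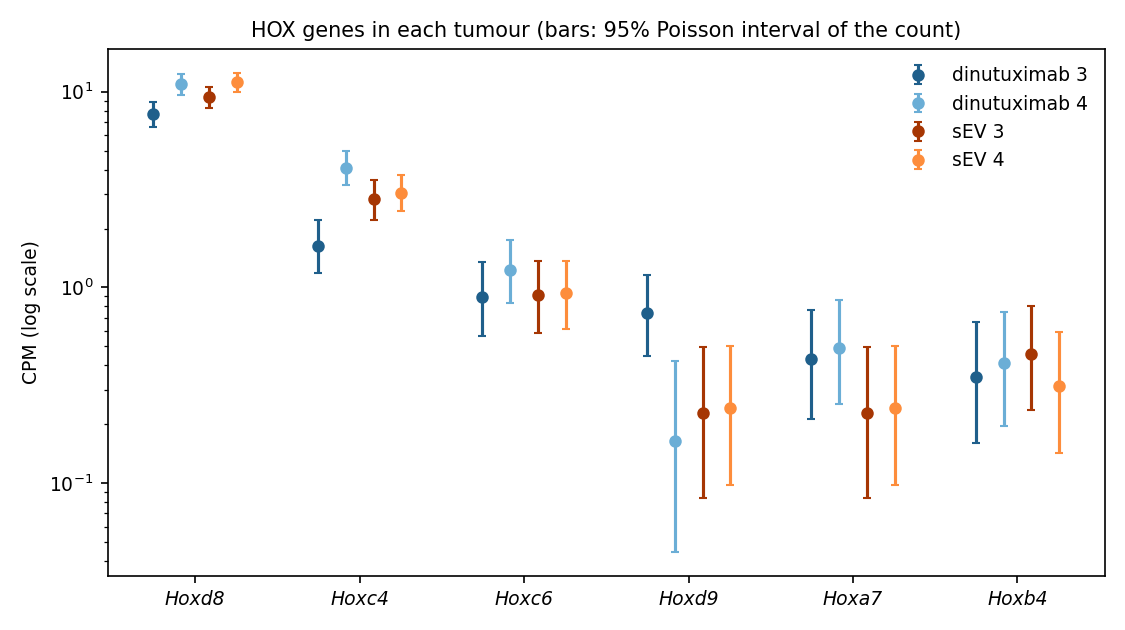
Level of the 5 tested HOX genes and of Hoxd9 in each of the 4 tumours, in CPM on a log axis. Bars are the exact Poisson 95% interval of the count. Dinutuximab tumour 3 is the lowest of the 4 tumours for Hoxd8, Hoxc4 and Hoxc6 and the highest for Hoxd9.

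Dinutuximab tumour 3 differed from the other tumours in its HOX pattern. It had the lowest level of Hoxd8, Hoxc4 and Hoxc6 and the highest level of Hoxd9, a posterior gene next to Hoxd8. Its interval for Hoxd8 overlapped that of sEV tumour 3 (8.22 to 10.6 CPM), its interval for Hoxc6 overlapped those of all other tumours, and its interval for Hoxc4 overlapped none. Without this tumour the log2 fold changes of Hoxd8 and Hoxc4 changed sign, to -0.092 and -0.48. Hoxd9 had 19, 4, 6 and 7 counts in dinutuximab tumours 3 and 4 and sEV tumours 3 and 4, or 0.740, 0.164, 0.229 and 0.242 CPM. Its level in dinutuximab tumour 3 was 4.52 times that in dinutuximab tumour 4, and the intervals of these tumours (0.446 to 1.16 and 0.0446 to 0.419 CPM) did not overlap, whereas the interval of tumour 3 overlapped those of both sEV tumours. Hoxb13, the most posterior Hoxb gene, had 4 counts in dinutuximab tumour 3 and 0 in the others. The same tumour had the highest sum of the smooth muscle markers, at 37.8 CPM against 5.33 to 14.3 CPM in the others, with Cnn1 at 0 in every tumour, and the part of these cells in the HOX pattern was not tested.

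**Figure D3:**
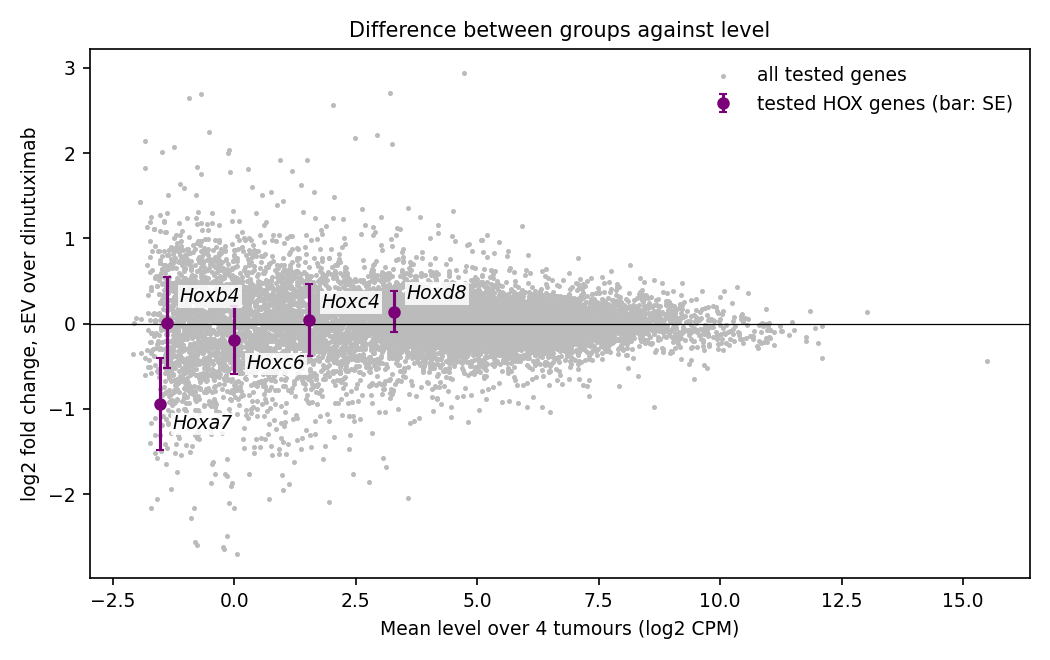
Log2 fold change (sEV over dinutuximab) against the mean level over the 4 tumours in log2 CPM, for all 13823 tested genes (grey) and the 5 tested HOX genes (purple, bars: SE of the model). The HOX genes lie between -0.95 and 0.14. Hoxa7, the lowest, passed the filter only through the dinutuximab group.

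The 15 HOX genes above 3 counts but under the filter were described by counts alone. Of these, 8 were lower in both sEV tumours than in both dinutuximab tumours and 0 were higher. These shares are 53.3% and 0%. Among all 2957 genes of that count range the shares were 18.4% lower and 13.3% higher, a background added after the values were seen. They included Hoxa3, Hoxa5, Hoxa9, Hoxb2, Hoxb5, Hoxb7 and Hoxc9. Their counts were small: Hoxa3 had 5 and 5 counts with dinutuximab against 3 and 4 with sEVs, and Hoxa9 had 5 and 1 against 0 and 1. Hoxb2, a factor of the hindbrain in the embryo, had 8 and 9 against 6 and 3, and Hoxb7 had 9 and 11 against 8 and 5. In 4 of the 8 (Hoxa5, Hoxa9, Hoxb5 and Hoxc9) a dinutuximab and an sEV tumour had the same count, such as 3 in dinutuximab tumour 3 and 3 in sEV tumour 3 for Hoxa5, so that the groups were separated only by the scaling to library size. The other 7 overlapped: Hoxa4 (0 and 4 against 2 and 1), Hoxb3 (5 and 6 against 6 and 3), Hoxb6 (9 and 4 against 8 and 3), Hoxb8, Hoxb9 (0 and 4 against 0 and 3), Hoxb13 and Hoxd9.

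Summed over its genes, the Hoxa cluster had 28 and 30 counts in the dinutuximab tumours and 15 and 16 in the sEV tumours. The totals were 1.09 and 1.23 CPM against 0.573 and 0.554 CPM, so the groups did not overlap, and the log2 ratio of the group means was -1.04. Hoxa7, described above, gave 11, 12, 6 and 7 of these counts, so the total is not independent of that gene. The Poisson intervals of the 4 totals overlapped, reaching down to 0.725 CPM in dinutuximab tumour 3 and up to 0.944 CPM in sEV tumour 3. Overlap of the intervals of single tumours does not show that counting error accounts for the difference. Such intervals also leave out the spread between tumours. The Hoxb cluster totalled 2.18 and 2.33 CPM against 1.91 and 1.39 CPM, also without overlap of the groups, with a log2 ratio of -0.45 and overlapping intervals. Of all tested genes taken singly, 16.5% were likewise lower in both sEV tumours than in both dinutuximab tumours. Without sEV tumour 3 the ratios were -1.07 for Hoxa and -0.71 for Hoxb, and without sEV tumour 4 the Hoxb ratio was -0.24.

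The Hoxc and Hoxd clusters, which held most HOX transcripts, overlapped between groups. Hoxc totalled 2.77 and 5.69 CPM with dinutuximab and 3.89 and 4.09 CPM with sEVs, a log2 ratio of -0.08. Hoxd totalled 8.45 and 11.2 CPM with dinutuximab and 9.62 and 11.4 CPM with sEVs, a log2 ratio of 0.10. With 2 tumours against 2, the exact two-sided permutation test cannot give a p below 0.333, so the totals were not tested.

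**Figure D4:**
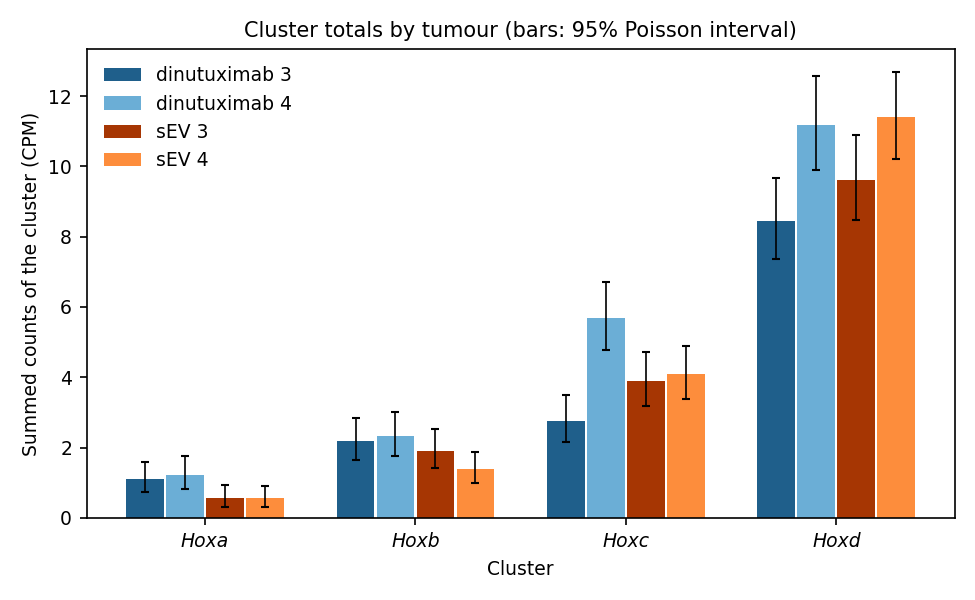
Summed level of the genes of each HOX cluster (bars, in CPM) in the 4 tumours, with the exact Poisson 95% interval of the summed count as black lines. The Hoxa and Hoxb bars of both sEV tumours end below those of both dinutuximab tumours, and the Hoxc and Hoxd bars of the groups overlap.

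Summed markers of several other cell types also differed between the groups, some lower and some higher with sEVs. For scale, the groups did not overlap in 34.6% of all tested genes, in either direction. The summed level of 5 endothelial markers, all of which passed the filter, was 116 and 123 CPM with dinutuximab and 95.1 and 89.1 CPM with sEVs, and each of the 5 had a negative fold change. Smooth muscle markers summed to 37.8 and 14.3 CPM against 7.63 and 5.33 CPM, with Cnn1 at 0, and skeletal muscle markers to 22.6 and 19.3 CPM against 15.002 and 14.8 CPM. In the other direction, 10 fibroblast markers, all of which passed the filter, summed to 640 and 638 CPM against 906 and 763 CPM, with 5 positive and 5 negative log2 fold changes. Most of that sum was Dcn and Col3a1 (0.54 and 0.37), while Col1a2 and Pdgfrb had -1.57 and -0.94, and none of the 10 was called. The 5 macrophage markers summed to 995 and 1044 CPM against 1153 and 1166 CPM, with 4 positive values and 1 negative. Haematopoietic progenitor markers summed to 37.6 and 44.8 CPM against 57.3 and 66.0 CPM. This sum was mostly Cd34 (log2 fold change 0.63), whereas Kit had 37 and 43 counts against 12 and 26 (-1.22), and Flt3 overlapped between the groups. The 3 erythroid markers summed to 31.0 and 18.5 CPM against 60.4 and 36.8 CPM. Schwann cell markers, with Sox10 at no more than 3 counts, stayed between 0.589 and 0.818 CPM. The part of any of these cells in the HOX values was not tested.

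The overlap of annotated exons limits a few HOX values, since the strand setting of the counting was not given. Hoxd3 and Hoxd4 have 37.7% and 47.7% of their exon bases to themselves, and Hoxb3 has 47.1% when both strands are considered. Hoxd8, Hoxc4, Hoxc6 and Hoxb4 share no exon base with another gene, and Hoxa7 keeps 79.6% of its exon bases free of the antisense gene Hoxaas3.

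Other genes inside the 4 clusters mostly had no count. Of 46 annotated there, 45 had a row in the table, 36 of these were at 0 and 2 passed the filter. Most of them are not annotated as protein-coding. For scale, 22003 of all 43432 genes of the table had a count in a tumour. The antisense RNA Hoxd3os1, at chr2:74703248-74716130 on the minus strand, spans Hoxd8 without sharing an exon base with it. Exons of Hoxd3 and Hoxd4 do share bases with Hoxd3os1, which limits its value as well. Hoxd3os1 had 1.21 and 1.19 CPM with dinutuximab and 1.37 and 1.97 CPM with sEVs. Of all tested genes, 18.1% were likewise higher in both sEV tumours. Its log2 fold change was 0.49 (SE 0.37, edgeR adjusted p = 0.909). Gm11539, a processed pseudogene in the Hoxb cluster whose reads may come from a related gene elsewhere, had 3.08 and 2.86 against 2.29 and 2.22 CPM, with a log2 fold change of -0.40 (SE 0.30, edgeR adjusted p = 0.909). The long non-coding RNA gene Hotair was at 0, and Hotairm1 had between 1 and 3 counts. The 6 microRNA genes with a row were at 0, in libraries made from messenger RNA.

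Beyond the ends of the clusters, 11 of the 16 nearest protein-coding neighbours, taken 2 to each side after the HOX values were seen, passed the filter. Of the 3 at 0, the homeobox genes Evx1 and Evx2 adjoin the Hoxa and Hoxd clusters at their posterior ends, and Calcoco2 lies near Hoxb. Mtx2, a mitochondrial import gene 60661 bases beyond the anterior end of Hoxd, had between 61.9 and 76.5 CPM and a mean of 19.2 RPKM. Lnpk, beyond Evx2, had 24.5 and 21.97 CPM with dinutuximab and 31.0 and 28.9 CPM with sEVs, with a log2 fold change of 0.37 (SE 0.15, edgeR adjusted p = 0.861). Skap1, next to Hoxb, had 2 and 0 counts against 6 and 7.

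The known partners of HOX proteins were all detected, at widely different levels. All 9 PBX, MEIS and PKNOX genes (the TALE cofactors) passed the filter, among them Pbx2 at a mean of 56.1 CPM and Meis1 at 47.1 CPM over the 4 tumours, with Pbx4 at 5.23 CPM and Pknox2 at 0.756 CPM as the lowest. None was called, 5 had a positive and 4 a negative log2 fold change, and the median was 0.01. Pbx2 had a log2 fold change of -0.18 (SE 0.13), and Meis1 of 0.01 (SE 0.14).

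Of the upstream regulators, the caudal factors Cdx1, Cdx2 and Cdx4, which activate central and posterior HOX genes in the embryo, were at 0 in all tumours. In the retinoic acid pathway, which opens anterior HOX genes, 8 of 17 genes passed the filter, 2 with a positive and 6 with a negative log2 fold change. Abundant members included the receptor gene Rarg at 123 CPM and the retinol transporter Stra6 at 113 CPM. Rdh10, which oxidises retinol, had a log2 fold change of 0.42 (SE 0.16, edgeR adjusted p = 0.822). Aldh1a1, Aldh1a3, Cyp26a1, Cyp26c1 and Rxrg had at most 3 counts in any tumour.

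The chromatin machinery that keeps HOX genes on or off was present throughout. All 15 trithorax and MLL genes passed the filter, with 3 positive and 12 negative log2 fold changes and a median of -0.18, led by Psip1 at 207 CPM, Mllt1 at 151 CPM and Ash2l at 145 CPM. All 19 Polycomb genes passed, with 6 positive and 13 negative values and a median of -0.05, led by Rbbp4 at 312 CPM, Phc2 at 279 CPM and the methyltransferase gene Ezh2 at 116 CPM. All 6 genes of CTCF and cohesin, which fold the clusters into domains, passed with a median of -0.04, and Rad21, Smc1a and Stag2 stood at 317, 143 and 122 CPM. Of 18 other positional factors 10 passed, led by Prrx1 at 78.1 CPM, Twist2 at 76.1 CPM and Twist1 at 40.9 CPM, all known from mesenchymal cells. Their median was -0.07, with 5 positive and 5 negative values.

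Over the 7 pathway lists, 0 of the 67 tested genes were called at an adjusted p under 0.05, and 6 had an unadjusted p under 0.05 in edgeR. These 6 are 8.96% of the 67, against 5.57% of all tested genes. Besides Rdh10 they were Kdm6b (log2 fold change -0.65, SE 0.22), Mllt3 (-0.48, SE 0.14), Jarid2 (-0.39, SE 0.15), Prrx2 (1.35, SE 0.28) and Meox1 (-1.68, SE 0.28), named after their values were seen. Their edgeR adjusted p-values lay between 0.370 and 0.841.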

How the data were processed

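The values deposited by the authors are whole-number counts for each Ensembl gene, without normalization. STAR, SAMtools, HTSeq and mm10 were used, per the submitters' processing notes, while versions, annotation release, counting mode and strand setting are not given in the sources used here. Libraries were made with a stranded mRNA kit and run on 2 lanes, per the labels' protocols. Symbols, coordinates and exon lengths came from GENCODE M21 (GRCm38). The table of the whole series and the tables per sample agreed in 173728 of 173728 values.

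All genes were fitted together with edgeR 4.0.16 in R 4.3.3: filterByExpr at its defaults, TMM scaling, the quasi-likelihood F test with the group as the only term, and Benjamini-Hochberg adjustment over 13823 genes at 0.05. CPM use the TMM library size, and RPKM also the merged exon length. Counts carry exact Poisson 95% intervals. Alternatives used DESeq2 1.42.0, limma-voom (limma 3.58.1), other filters and scalings, the tumour number as a block and each library left out. If tumours of a group were not independent, p-values measure only the spread between these samples.

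The rule for named genes took the HOX genes, with those of at most 3 counts given by their number, the up to 3 most abundant members of each pathway list and the genes inside the clusters that passed the filter. Some members of the HOX set and of the lists are not reported here by name. The members and lists were chosen with earlier results of these data known. Cell marker lists covered sympathetic neuroblasts, Schwann cells, fibroblasts, smooth and skeletal muscle, keratinocytes (0.0409 to 1.68 CPM summed), adipocytes (26.6 to 32.7 CPM), endothelial cells, macrophages, T and NK cells (1.41 to 6.41 CPM), B cells (1.02 to 1.56 CPM), haematopoietic progenitors and erythroid cells.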

Additional observations from a re-analysis of the deposited data

How the results depend on the processing

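No HOX gene was called in either direction under any of the 16 alternatives, and the smallest edgeR, DESeq2 or limma-voom adjusted p of a HOX gene was 0.752. Over all genes, the main edgeR fit called 0 higher and 0 lower (341 and 429 at an unadjusted p under 0.05). DESeq2 called 14 and 31, the fit with no low-count filter 107 and 155, and leaving out 1 library gave 0 to 160 and 0 to 156. The upper ends came without sEV tumour 4. In the fits without sEV tumour 3, without sEV tumour 4 and with no low-count filter, edgeR gave genes of like level a shared spread (infinite prior degrees of freedom). In the main fit the prior degrees of freedom were 6.48, so that the spread of each gene also counted. The cause of the calls was not tested. With the tumour number as a replicate block the calls were 21 and 46, with 0 HOX genes and a HOX median of 0.01. The deviations of same-numbered tumours correlated at 0.0659 over genes, and the labels do not say that the numbers pair the tumours.

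The HOX median of 0.01 became -0.74 with no filter, over the 27 HOX genes with a count. Over the 20 above 3 counts, with Hoxb13 set to 3 counts over the sEV group in place of 0, it was -0.59, and 16 of the 20 were negative. Leaving out 1 library moved the median to between -0.41 and 0.048, with 7 or 8 HOX genes passing the filter. The ranges were -0.29 to 0.27 for Hoxb4 (-0.014 in limma-voom), -0.48 to 0.84 for Hoxc4, -0.41 to 0.046 for Hoxc6 and -0.092 to 0.42 for Hoxd8. Hoxc4 was -0.48 and Hoxd8 -0.092 and Hoxb4 -0.094 without dinutuximab tumour 3, Hoxb4 -0.29 without sEV tumour 3, Hoxc4 -0.016 without sEV tumour 4 and Hoxc6 0.046 without dinutuximab tumour 4. Hoxa7 stayed between -1.04 and -0.85. The cluster log2 ratios ranged from -1.12 to -0.95 for Hoxa, -0.71 to -0.24 for Hoxb, -0.51 to 0.53 for Hoxc and -0.09 to 0.31 for Hoxd. The anterior share of 2.83% became 4.17% with exon bases free of other genes on both strands and 4.08% without a length correction. A filter of 1 CPM in 2 libraries left 2 HOX genes, Hoxd8 and Hoxc4. Leaving out 1 library assumes that the single tumour left varies as the other group does. In the main fit 5 of the 39 HOX genes passed the low-count filter, and the others were not tested.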
